A study of Mus musculus with 6 samples.

Results

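The 10 genes Bcl11b, Ebf1, Isl1, Sp9, Meis2, Rarb, Eya1, Zfp503, Tshz1 and Casz1 encode transcription factors, or in the case of Eya1 a transcriptional coactivator, of the medium spiny neuron lineage. They were chosen by name, and all 10 were found among the 24841 genes measured. Medium spiny neurons (MSNs) are the GABAergic projection neurons of the striatum. Those of the direct pathway carry the dopamine receptor D1 and those of the indirect pathway the dopamine receptor D2. Both arise in the lateral ganglionic eminence of the embryo, where factors such as Bcl11b, Meis2, Rarb and Zfp503 act in the lineage. Ebf1 and Isl1 act in the direct pathway branch, and Sp9 acts in the indirect pathway branch. A smaller group, called eccentric MSNs, is told apart in adult striatum by genes such as Otof, Tshz1 and Casz1.

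The nuclei came from frozen mouse striatum, from 3 wild-type and 3 Celsr3 heterozygous biological replicates with 1 single-nucleus library each. Celsr3 encodes a seven-pass cadherin of the planar cell polarity family, and the wild-type group carries no allele named in the labels. The nature of the Celsr3 allele and the sex, age, strain and litter of the mice are not given in the sources used here. All 6 libraries shared 1 sequencing lane per the labels' protocols.

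The table held 48834 nuclei, of which 47931 were kept after doublet-like nuclei were left out, 7593 to 8683 per library. The values are the authors' whole numbers per gene and nucleus, apparently corrected for depth, so the depth of each nucleus is unknown and no counting interval is given. Nuclei of wild-type replicate 1 had a median of 2456 genes, against 2843 to 3011 in the other 5 libraries, so that wild-type replicate 1 stood apart. These medians cover nuclei of all classes. Wild-type replicate 1 also held the most oligodendrocyte-like nuclei, 1873 against 933 to 1523, and the part of the class mix in its median was not tested. The libraries shared 274 of 48559 distinct barcodes. D1 MSN-like nuclei numbered 8486 and D2 MSN-like nuclei 7102, together 26.7%, 44.5% and 29.7% of wild-type replicates 1, 2 and 3 and 33.7%, 34.3% and 26.8% of heterozygous replicates 1, 2 and 3. Glutamatergic neuron-like nuclei, 275 to 1543 per library, were also present in the dissected tissue. Unnamed clusters held 310 to 1330 nuclei per library. The largest, cluster 6, drew 4.2% of its nuclei from heterozygous replicate 1 and 40.0% from heterozygous replicate 2. All of these enter the values over all nuclei. Celsr3 itself had a mean of 0.166 ± 0.0152 (wild type) and 0.0943 ± 0.0132 (heterozygous; SD, n = 3 each) in D1 MSN-like nuclei, with all heterozygous libraries lower. Its log2 change there was -0.76 ± 0.13 (SE), with a limma adjusted p of 0.136.

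Nuclei were named from clusters by marker genes that did not include any of the 10 genes. D1 MSN-like nuclei had Drd1 at a mean value of 1.03 and Drd2 at 0.101, and D2 MSN-like nuclei had Drd1 at 0.108 and Drd2 at 4.02. Eccentric MSN-like nuclei, 1152 in all, had Otof at 1.56, against 0.235 in D1 MSN-like nuclei. Of the 7 eccentric markers 6 passed the naming limits, whereas Htr7, at 0.0833, was below the D2 class at 0.116. The eccentric class also had Drd1 at 0.674 and Tac1 at 1.59, the second above the D1 class at 1.27. Its Penk level was 1.31, between 0.384 in D1 and 4.68 in D2 MSN-like nuclei. The clusters were built from variable genes, 3 of the 10 among them, so levels by class are given as a description, with no test. Values by library are listed in the order of replicates 1, 2 and 3 of each genotype. All levels below are mean values per nucleus, averaged over libraries with at least 20 nuclei of the class, with the SD over libraries. Nuclear RNA of a long gene gives more intron reads, so levels are compared within a gene and not between genes. The totals of the nuclei had a coefficient of variation of only 10.7%, over all classes. A level is therefore closer to a share of a nucleus's total than to an amount of RNA, and comparisons between classes carry this limit.

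**Figure D1:**
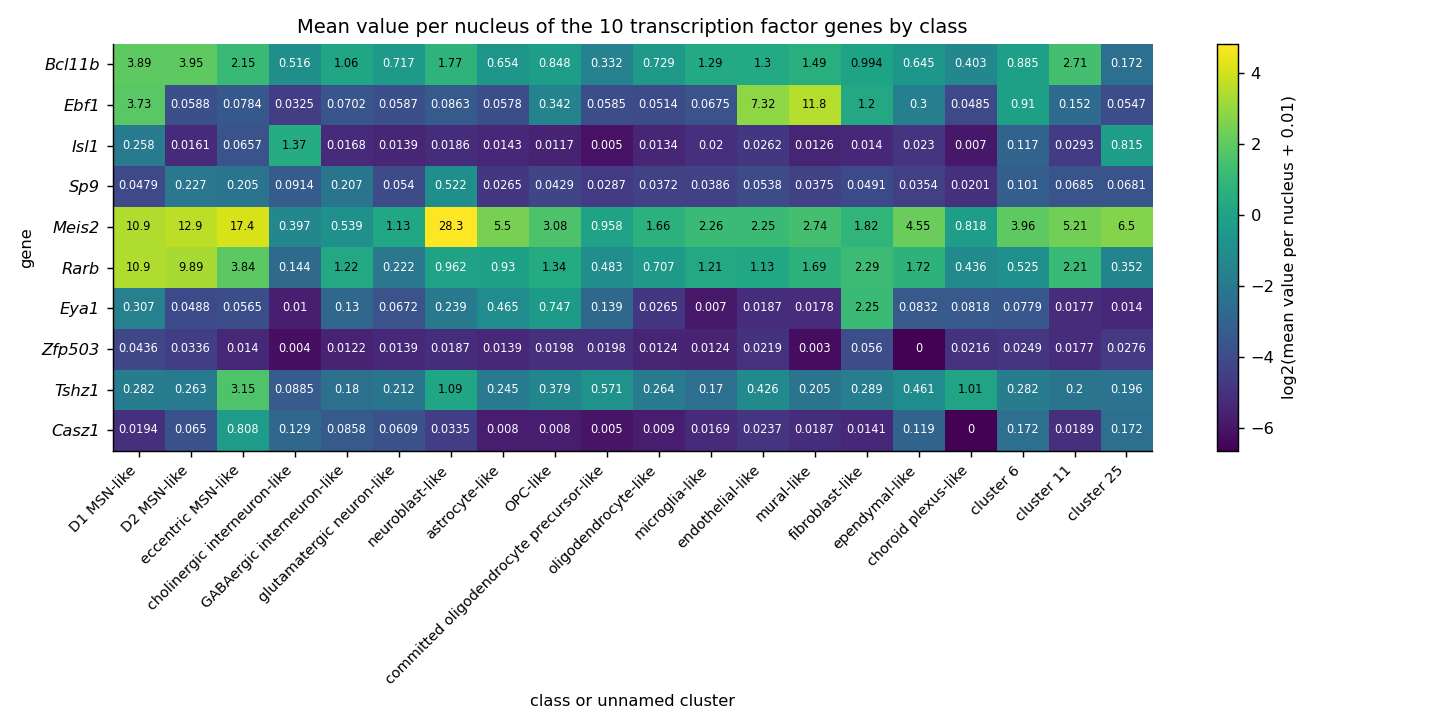
Mean value per nucleus of each gene (rows) in 17 named classes and 3 unnamed clusters (columns), printed in each cell and coloured by log2(mean + 0.01). Bcl11b and Rarb are highest in the D1 and D2 MSN-like columns, Ebf1 in mural-like nuclei at 11.8, Meis2 in neuroblast-like nuclei at 28.3, and Tshz1 and Casz1 in eccentric MSN-like nuclei at 3.15 and 0.808.

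Bcl11b and Rarb were the factors at their highest in both MSN branches. Bcl11b, also called Ctip2, is a zinc finger protein needed for MSN differentiation and striatal patch organisation. Its level was 3.95 ± 0.299 in D2 and 3.89 ± 0.198 in D1 MSN-like nuclei (SD, n = 6 each), ranges that overlapped. The next class in the order, unnamed cluster 11 with few genes per nucleus, was at 2.71 ± 0.196 and did not overlap with them. Eccentric MSN-like nuclei followed at 2.15 ± 0.426. D2 led D1 MSN-like nuclei over all libraries and over the heterozygous ones, whereas D1 led over the wild-type ones.

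Rarb, a retinoic acid receptor that acts as a ligand-dependent nuclear receptor, was at 10.9 ± 0.988 in D1 and 9.89 ± 0.960 in D2 MSN-like nuclei (SD, n = 6 each). The D1 level was higher in 6 of 6 libraries, by 1.08 to 1.12-fold. Eccentric MSN-like nuclei were at 3.84 ± 0.673, and fibroblast-like nuclei came next at 2.29. Both genes were also read in cells outside the lineage. The 8 other classes compared were the oligodendrocyte, oligodendrocyte precursor cell, astrocyte, microglia, endothelial, glutamatergic neuron, GABAergic interneuron and cholinergic interneuron-like ones. Over these, Bcl11b stood at 12.7% (cholinergic interneuron-like) to 33.0% (endothelial-like) of its level in D1 and D2 MSN-like nuclei combined. Rarb stood at 1.42% (cholinergic interneuron-like) to 11.7% (microglia-like). Of the MSN markers, Rgs9 stood at 1.92% to 18.4% and Ppp1r1b at 25.5% to 72.5% over the same classes. Classes outside these 8 reached further. Bcl11b was at 1.77 in neuroblast-like and 1.49 in mural-like nuclei, both above its endothelial-like level. At 0.332 in committed oligodendrocyte precursor-like nuclei, it was below its cholinergic interneuron-like level. Rarb was higher in fibroblast-like, ependymal-like (1.72) and mural-like nuclei (1.69) than in microglia-like nuclei. Rarb was below Rgs9 in oligodendrocyte-like nuclei (6.73% and 9.24%) but above it in GABAergic interneuron-like (11.5% and 4.95%) and glutamatergic neuron-like nuclei (2.24% and 1.92%).

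Rarb is transcribed from several start sites and is itself known to respond to retinoic acid through an element in its promoter. The RefSeq window of 250 bases before its listed start (GRCm38.p6, chr14:16575477-16575726, minus strand) held a direct repeat of the retinoic acid response element type, beginning 53 bases before the start. The pattern searched was the exact letters of both units of this Rarb repeat, with the bases between them left free. Only 2 of 32817 RefSeq windows of that length held it on either strand. Looser forms of the repeat were not searched for, so this count does not show how rare elements of this type are. The repeat is shown in capitals with 6 bases on either side (chr14:16575507-16575535, minus strand), because the gene is known for this element.

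Rarb: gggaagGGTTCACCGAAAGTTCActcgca

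In the GENCODE annotation the element lies in the 5′ UTR of Rarb isoforms that start further upstream and in an intron of longer ones, and the antisense gene Gm48162 begins inside the window. The pattern was searched for after the sequence had been seen, and a match is a description and not a site. Rarb spans chr14:16430839-16819156 and overlaps Top2b and Gm48162 on the other strand. Whether counting was stranded is not given in the sources used here, so reads of the overlapping stretches cannot be assigned.

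Meis2, a homeodomain cofactor of the TALE family that is active through the lateral ganglionic eminence and in olfactory bulb precursors, did not peak in MSNs. It was highest in neuroblast-like nuclei at 28.3 ± 1.59, followed by eccentric MSN-like nuclei at 17.4 ± 1.91, D2 MSN-like nuclei at 12.9 ± 0.454 and D1 MSN-like nuclei at 10.9 ± 0.215 (SD, n = 6 each). None of these neighbours overlapped. D2 exceeded D1 MSN-like nuclei in 6 of 6 libraries, by 1.15 to 1.22-fold. Cholinergic interneuron-like nuclei were lowest, at 0.397. Meis2 and Rarb therefore lay in opposite order in the D1 and D2 classes of every library.

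Zfp503, or Nolz1, a zinc finger factor of the lateral ganglionic eminence, was low wherever it was measured. Its level was 0.0436 ± 0.00732 in D1 and 0.0336 ± 0.00400 in D2 MSN-like nuclei (SD, n = 6 each), with a value above 0 in 4.17% and 3.24% of nuclei. Fibroblast-like nuclei had 0.0560 ± 0.0484 (n = 5), and the order of classes overlapped at each of its first steps. D1 exceeded D2 in 6 of 6 libraries, by 1.07 to 1.75-fold.

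Ebf1 was far higher in the D1 than in the D2 class, but its highest levels were in vessel cells. Ebf1 is a helix-loop-helix factor needed for direct pathway MSN differentiation, and it also acts in B lymphocytes and in mural cells. Mural-like nuclei had 11.8 ± 1.45 and endothelial-like nuclei 7.32 ± 0.372, above 3.73 ± 0.448 in D1 MSN-like nuclei (SD, n = 6 each), and none of the 3 overlapped. Fibroblast-like nuclei followed at 1.2 ± 0.610 (n = 5) and unnamed cluster 6, led by Sim1, at 0.910 ± 0.323 (n = 6). The D1 class had 4.37, 3.79 and 3.53 (wild type) and 3.02, 3.71 and 3.94 (heterozygous). The D2 class had 0.0551, 0.0827 and 0.0604 (wild type) and 0.0529, 0.0512 and 0.0505 (heterozygous). Every library was thus 45.8 to 79.3-fold higher in the D1 class. The D2 level of 0.0588 was close to that of oligodendrocyte-like nuclei, 0.0514, where 3.04% of nuclei had a value above 0 at a median of 1878 genes per nucleus, against 4.24% of D2 MSN-like nuclei. With D1 or D2 called for each nucleus from its own markers the ratio was 13.7, and with clusters built without the 10 genes it was 50.1. Ebf1 spans chr11:44617317-45008091, plus strand, and holds Gm12158 on the other strand, whose reads cannot be told apart where they overlap without the strand.

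Isl1, a LIM homeodomain factor of the direct pathway branch and of cholinergic neurons, was highest in cholinergic interneuron-like nuclei at 1.37 ± 0.221 (SD, n = 6). Unnamed cluster 25 followed at 0.815 ± 0.148 (n = 5), then D1 MSN-like nuclei at 0.258 ± 0.00927 (n = 6), and none of these overlapped. D1 MSN-like values were 0.261, 0.258 and 0.261 in the wild-type and 0.241, 0.268 and 0.261 in the heterozygous libraries, the narrowest relative spread over libraries of the 10 genes in that class except that of Meis2. The level in D2 MSN-like nuclei was 0.0161, near that of oligodendrocyte-like nuclei (0.0134), and D1 exceeded it 11.4 to 21.6-fold in the 6 libraries. A value above 0 was found in 22.5% of D1 MSN-like nuclei for Isl1, in 88.3% for Ebf1 and in 19.5% for both.

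Eya1, a coactivator with phosphatase activity that partners homeodomain proteins of the sine oculis family, was also higher in the D1 class. Its level was 0.307 ± 0.0257 in D1 and 0.0488 ± 0.00858 in D2 MSN-like nuclei (SD, n = 6 each), a ratio of 5.18 to 9.25 within libraries. Fibroblast-like nuclei, at 2.25 ± 0.765 (n = 5), OPC-like nuclei (oligodendrocyte precursor cells), at 0.747, and astrocyte-like nuclei, at 0.465, were all higher than the D1 class. Eya1 spans chr1:14168954-14310235, minus strand.

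Sp9, a zinc finger factor needed for indirect pathway MSNs, was highest in neuroblast-like nuclei at 0.522 ± 0.117 (SD, n = 6). D2 MSN-like nuclei were at 0.227 ± 0.0199, GABAergic interneuron-like nuclei at 0.207 ± 0.0363 and eccentric MSN-like nuclei at 0.205 ± 0.0599, 3 levels that overlapped. The D2 class had 0.255, 0.202 and 0.217 (wild type) and 0.234, 0.214 and 0.243 (heterozygous). The D1 class had 0.0572, 0.0477 and 0.0463 (wild type) and 0.0366, 0.0429 and 0.0570 (heterozygous). D2 was higher in all 6, by 4.23 to 6.41-fold, and the D1 level was near that of oligodendrocyte-like nuclei (0.0372). Sp9 was above 0 in 20.1% of D2 and 4.55% of D1 MSN-like nuclei. It overlaps Cir1 on the other strand over 1602 bases, whose reads cannot be told apart there without the strand. Cir1 was at 0.328 in D1 and 0.378 in D2 MSN-like nuclei.

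The promoters of Isl1 and Sp9 are shown because these genes mark opposite branches. Each is the RefSeq window before the start (GRCm38.p6) without its last base, which is exonic in the GENCODE annotation. The Isl1 window is chr13:116309690-116309938, minus strand, and the Sp9 window chr2:73271676-73271924, plus strand. Capitals mark matches to CCAAT and to the GC box GGGCGG on either strand.

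Isl1: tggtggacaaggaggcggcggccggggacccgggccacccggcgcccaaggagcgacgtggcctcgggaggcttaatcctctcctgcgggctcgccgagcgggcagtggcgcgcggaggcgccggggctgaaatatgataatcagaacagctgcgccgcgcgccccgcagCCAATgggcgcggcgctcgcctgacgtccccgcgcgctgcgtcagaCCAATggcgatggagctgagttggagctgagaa

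Sp9: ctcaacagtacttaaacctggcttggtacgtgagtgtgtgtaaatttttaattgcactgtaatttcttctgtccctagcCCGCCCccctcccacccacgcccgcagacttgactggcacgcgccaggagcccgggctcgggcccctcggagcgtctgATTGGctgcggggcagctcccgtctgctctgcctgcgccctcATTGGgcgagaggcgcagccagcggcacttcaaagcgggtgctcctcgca

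Isl1 had a GC content of 71.1% and Sp9 of 62.2%, against a median of 52.4% over all 250-base windows. Both held 2 matches to CCAAT, which 33.8% of all windows hold, and Sp9 held 1 to GGGCGG, which 32.7% hold. The other motifs searched were the EBF palindrome (in 0.780% of windows), TGACAG (15.9%), TAATTA (4.85%), AGGTCA (14.0%) and TATAAA (12.4%), none of them with a match in these 2 windows. CCAAT was added after the sequences were seen.

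**Figure D2:**
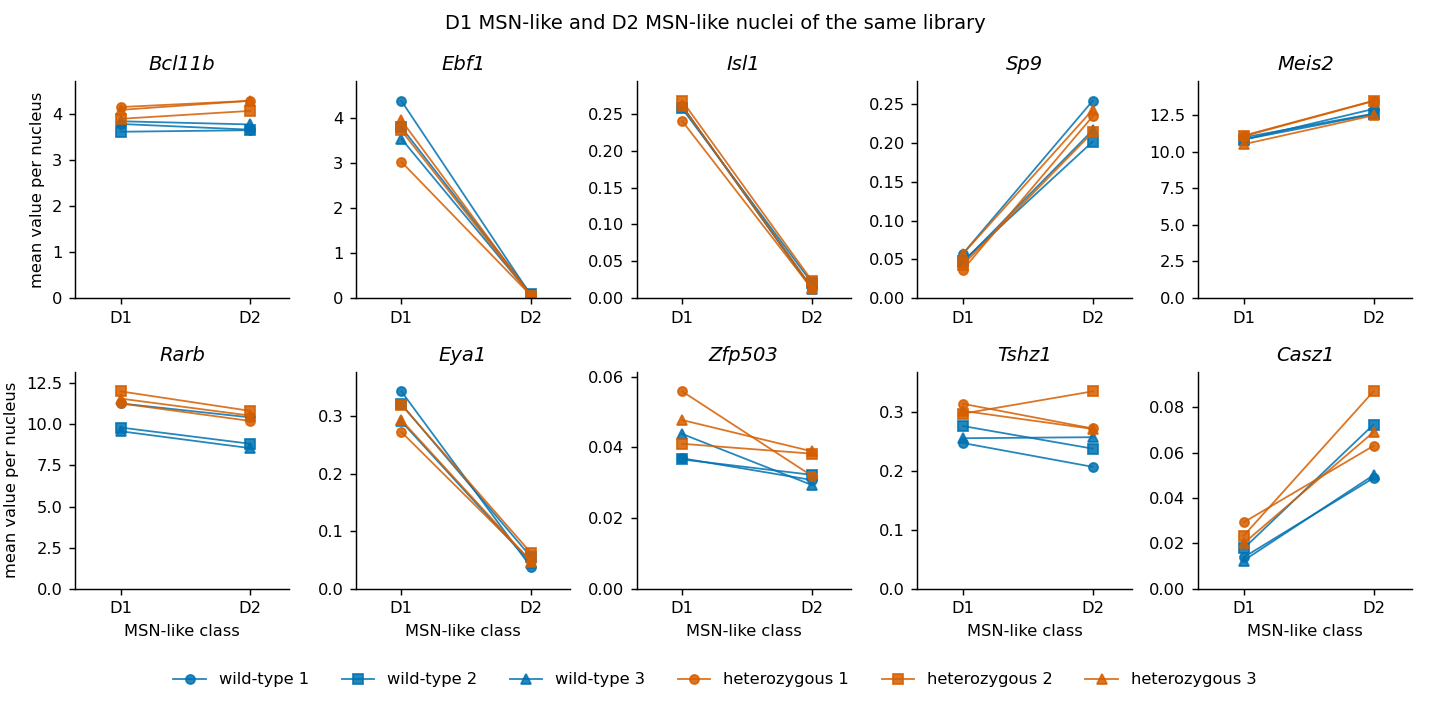
Mean value per nucleus of each gene in D1 and D2 MSN-like nuclei, with 1 line per library (blue wild type, orange heterozygous) and axes from 0. In all 6 libraries Ebf1, Isl1, Eya1, Rarb and Zfp503 are higher in D1 and Sp9, Meis2 and Casz1 in D2, while Bcl11b (2 of 6 higher in D1) and Tshz1 (4 of 6) go either way.

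Tshz1 and Casz1 set the eccentric class apart, and both were among the 10 genes that led its cluster, so this is how the cluster is described and not a test of it. Tshz1, a teashirt zinc finger factor, was at 3.15 ± 0.393 in eccentric MSN-like nuclei, 1.09 ± 0.285 in neuroblast-like nuclei (SD, n = 6 each) and 1.01 ± 0.109 in choroid plexus-like nuclei (n = 3). In D1 and D2 MSN-like nuclei it was 0.282 and 0.263, with a value above 0 in 23.2% and 21.7% of nuclei at a median of 3332 genes per nucleus for both classes together. Oligodendrocyte-like nuclei had 0.264 and 17.3%, so the level in the D1 and D2 classes was close to theirs. Other classes differed, so this level is not a floor for Tshz1. Pooled over nuclei, it was 0.0876 in cholinergic interneuron-like and 0.169 in microglia-like nuclei, but 0.394 in OPC-like and 0.431 in endothelial-like nuclei.

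Casz1, a castor zinc finger factor, was at 0.433, 1.13 and 0.625 in eccentric MSN-like nuclei of the wild-type and 0.824, 0.595 and 1.24 in those of the heterozygous libraries. No other class exceeded 0.172, the level of unnamed clusters 25 and 6, and no library of either overlapped with the eccentric class. In D2 MSN-like nuclei the level was 0.0650 ± 0.0145 and in D1 MSN-like nuclei 0.0194 ± 0.00626 (SD, n = 6 each), D2 being higher in all 6 libraries. Tshz1 was above 0 in 88.5% of eccentric MSN-like nuclei, Casz1 in 40.9% and both in 36.5%.

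Within the MSN classes the factors split the clusters further. The D1 class held clusters 1, 5 and 12 and the D2 class clusters 0 and 8. Cluster 1, the largest D1 cluster, was named from 3 of 6 D1 markers, none of them among its 10 leading genes. Ebf1 was at 4.0 ± 0.278 in cluster 1 and 4.05 ± 0.842 in cluster 5 but at 1.78 ± 0.221 in cluster 12 (SD, n = 6 each), which overlapped with neither. Heterozygous replicate 1 was the lowest library in cluster 5, at 2.59. Eya1 was at 0.449 ± 0.0660 in cluster 1, 0.198 ± 0.0276 in cluster 5 and 0.0657 ± 0.0205 in cluster 12, which was at the level of the D2 clusters. Isl1 ran the other way, at 0.207 ± 0.0146 in cluster 1, 0.312 ± 0.0233 in cluster 5 and 0.323 ± 0.0275 in cluster 12.

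Clusters 12 and 8 had the highest mean Tshz1 and Meis2 and the lowest mean Rarb of the 5 D1 and D2 clusters. Tshz1 was at 0.627 ± 0.0624 in D1 cluster 12 and 0.544 ± 0.0360 in D2 cluster 8, against 0.172 ± 0.0198 in cluster 1, 0.313 ± 0.0771 in cluster 5 and 0.188 ± 0.0366 in cluster 0 (SD, n = 6 each). Heterozygous replicate 1 was the highest library in cluster 5, at 0.463. Meis2 was at 13.4 in cluster 12 and 15 in cluster 8, above 10.7 in cluster 1, 10.2 in cluster 5 and 12.3 in cluster 0. Rarb was lower, at 9.20 in cluster 12 and 7.85 in cluster 8, against 11 in cluster 1, 11.5 in cluster 5 and 10.4 in cluster 0, and the libraries of cluster 12 overlapped with those of clusters 1 and 0. Casz1 did not follow this pairing: it was at 0.253 ± 0.0524 in cluster 8 and 0.0185 ± 0.00948 in cluster 12. Since cluster 0 had 0.0137, the Casz1 level of the D2 class came mainly from cluster 8.

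The eccentric class, cluster 13, lay lowest of the 6 MSN-like clusters in Bcl11b and Rarb and highest in Meis2, Tshz1 and Casz1. Heterozygous replicate 1 stood apart in it, with Isl1 at 0.254 against 0 to 0.0558 in the other 5 libraries, Meis2 at 13.7 against 17.3 to 18.7 and Tshz1 at 2.5 against 2.93 to 3.62.

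**Figure D3:**
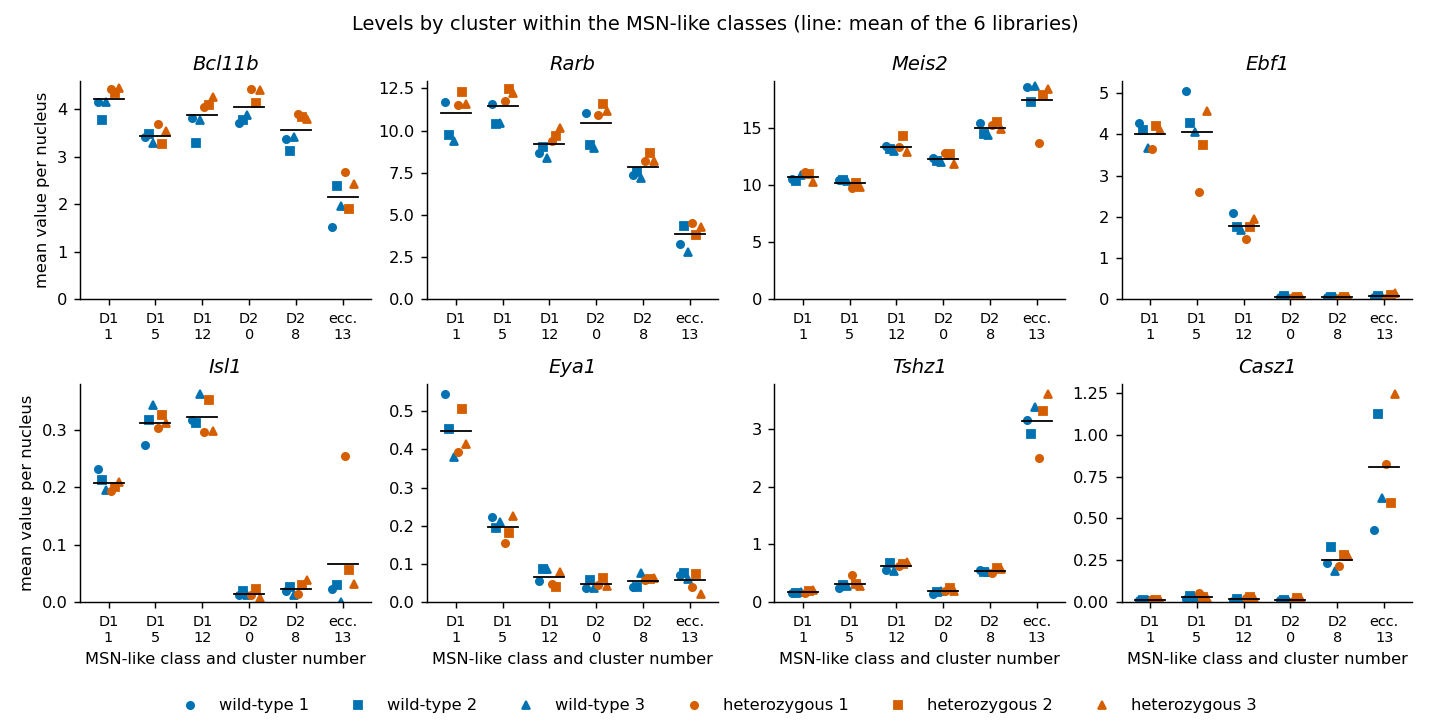
Mean value per nucleus of 8 genes in the 6 MSN-like clusters, with 1 point per library (blue wild type, orange heterozygous), black lines at the mean of the 6 libraries and axes from 0. Ebf1 is lower in D1 cluster 12 (1.78), Tshz1 is higher in D1 cluster 12 (0.627) and D2 cluster 8 (0.544), and Casz1 is higher in D2 cluster 8 (0.253) and the eccentric cluster 13.

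Other genes with the most similar patterns were sought over the same 20 classes and clusters. These correlations of log2 levels are descriptions, since all classes share the same libraries and free RNA. Bcl11b was closest to Smpd3 (r = 0.951) and Osbpl8 (0.917), and Rarb to Rgs9 (0.933), the striatal regulator of G protein signalling, and Gm10754 (0.926). Ebf1 was closest to Gm12158 (0.921), which lies inside it, and Emcn (0.802), an endothelial sialomucin. Isl1 was closest to Tacr3 (0.839) and Ecel1 (0.829), the second of which was a cholinergic marker in naming the classes. Sp9 was closest to Dlx6os1 (0.886) and Dlx5 (0.825), and Casz1 to Cdkl1 (0.846) and Zcchc12 (0.837). Eya1 was closest to Adam12 (0.735) and Pknox2 (0.719), and Zfp503, at its low level, to Has3 (0.822) and Gm11250 (0.725).

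For 2 genes the closest patterns belonged to neighbours. Meis2 was closest to the noncoding genes G630016G05Rik (r = 0.876) and 2700033N17Rik (0.851), which lie 1385 and 378 bases from it in the annotation. Tshz1 was closest to Zadh2 (0.810), 356 bases away, and Zfp407 (0.693), the next gene named by the same rule. Among the 10 genes themselves the closest pair was Bcl11b and Rarb (0.811), followed by Meis2 and Rarb (0.613).

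Related factors were taken from lists of genes, and those furthest apart between the D1 and D2 classes are named. Of the other striatal projection neuron factors, Zfp521, a zinc finger partner of Ebf1, was at 0.901 ± 0.0656 in D1 and 0.0292 ± 0.00649 in D2 MSN-like nuclei, a ratio of 30.8. Foxp2 was at 5.70 ± 0.309 and 1.70 ± 0.285, a ratio of 3.36. In the other direction Ikzf2, the zinc finger factor Helios, was 3.01-fold and Zfhx3 1.87-fold higher in D2. Each of the 4 went 1 way in all 6 libraries (SD, n = 6).

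Of the paralogues of the 10 genes, Tshz2 and Meis3 were 1.57-fold and 1.26-fold higher in D1 and Meis1 1.48-fold higher in D2, each in 6 of 6 libraries. Tshz3, at 0.0669 and 0.0706, went either way. Of the interneuron factors Maf was 2.64-fold and Satb1 1.48-fold higher in D2 in all 6 libraries, whereas Etv1 (0.240 and 0.193) was higher in D1 in 5 and Sox6 (0.0439 and 0.0390) in 4. Ebf2, Ebf3 and Isl2 were not among those that passed the filter in both classes.

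The second question was whether the 10 genes differed between heterozygous and wild-type libraries, tested with limma over all genes at an adjusted p under 0.05. None of the 10 genes passed in all nuclei, where 0 of 14397 genes were called (a background of 0%). In D1 MSN-like nuclei 9 of the 10 were tested and none called, against 4 of 13449 genes (0.0297%). The D2 class had 9 tested with none called, against 1 of 12737 (0.00785%). Casz1 did not reach the filter in D1 and Isl1 did not in D2 MSN-like nuclei. At an unadjusted limma p under 0.05 there were 0 of the genes in all nuclei (9.94% of all genes), 2 in D1 (Rarb and Tshz1; 9.78%) and 3 in D2 MSN-like nuclei (Bcl11b, Rarb and Tshz1; 8.51%), each of these higher in heterozygous libraries.

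Leaving out wild-type replicate 1 raised the calls over all genes to 214 in D1 and 119 in D2 MSN-like nuclei, none of them among the 10 genes. Without heterozygous replicate 1 or 2 the calls fell to 1 in D1 and 0 in D2, without wild-type replicate 2 to 2 in D1, and without heterozygous replicate 3 they rose to 2 in D2. The median log2 change of the tested genes of the 10 was 0.09 in all nuclei, 0.0012 in D1 and 0.18 in D2 MSN-like nuclei, beside 0.07, 0.06 and 0.04 over all genes tested. Size-factor scaling brought these medians over all genes to 0.0051, 0.0054 and 0.0043, and the share of genes higher in heterozygous libraries from 69.2%, 64.8% and 60.4% to 51.9%, 51.6% and 51.2%. Without heterozygous replicate 1 the median over all genes was 0.10 in D1 and 0.09 in D2, and without heterozygous replicate 3 it was 0.03 and 0.0059. Without heterozygous replicate 2 it was 0.04 and 0.02.

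Bcl11b was slightly higher in every heterozygous library in both MSN classes. The D1 class had 3.78, 3.61 and 3.84 (wild type) and 4.15, 3.89 and 4.08 (heterozygous). The D2 class had 3.66, 3.64 and 3.77 (wild type) and 4.28, 4.06 and 4.28 (heterozygous). The groups did not overlap in either class, where heterozygous libraries were all higher for 11.1% of the genes tested in D1 and 9.09% in D2. The log2 change was 0.11 ± 0.06 in D1 (SE, limma adjusted p = 0.583) and 0.19 ± 0.06 in D2 (adjusted p = 0.405), so neither passed. Size-factor scaling gave 0.06 in D1. In all nuclei Bcl11b overlapped between the genotypes, at 1.86 ± 0.241 and 1.95 ± 0.234 (SD, n = 3 each).

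Rarb was 11.3, 9.81 and 9.58 (wild type) and 11.3, 12 and 11.6 (heterozygous) in the D1 class. The groups met at wild-type replicate 1 and heterozygous replicate 1, the second being higher by less than the last digit given. The D2 class had 10.4, 8.82 and 8.55 (wild type) and 10.2, 10.8 and 10.5 (heterozygous), which overlapped. Wild-type replicate 1, the library with the fewest genes per nucleus over all classes together, was thus the one wild-type library at the heterozygous level in both classes. Genes per nucleus were not compared between libraries within the D1 or D2 class. The log2 change was 0.19 ± 0.08 in D1 (SE, limma adjusted p = 0.473, over its alternatives 0.0444 to 0.942) and 0.19 ± 0.08 in D2 (adjusted p = 0.585, 0.0731 to 0.982). Without wild-type replicate 1 it was 0.26 in D1 (adjusted p = 0.0705) and 0.28 in D2 (0.0817), and with array weights the D1 change of 0.27 passed at an adjusted p of 0.0444.

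Tshz1 was 0.247, 0.276 and 0.255 in D1 MSN-like nuclei of the wild-type and 0.314, 0.297 and 0.302 in those of the heterozygous libraries. For the D2 class it was 0.207, 0.238 and 0.257 in the wild-type and 0.272, 0.335 and 0.271 in the heterozygous libraries. Heterozygous libraries were higher without overlap in both classes, as they were for 11.1% of the genes tested in D1 and 9.09% in D2. The levels were near those of oligodendrocyte-like nuclei. The log2 change was 0.22 ± 0.09 in D1 (SE, limma adjusted p = 0.462) and 0.31 ± 0.12 in D2 (adjusted p = 0.526). Within D1 clusters 1, 5 and 12 taken singly, the genotypes overlapped for Tshz1 in each. Its wild-type and heterozygous means were 0.164 and 0.180 in cluster 1, 0.276 and 0.350 in cluster 5, and 0.595 and 0.659 in cluster 12. Tshz1 was higher in cluster 8 than in cluster 0, and cluster 8 made up 16.4%, 19.0% and 21.7% of the D2 class in the wild-type and 26.5%, 25.3% and 20.5% in the heterozygous libraries. With the clusters weighted equally, which was tried only once the data had been looked at, the D2 change was 0.12. Within cluster 0, the larger one, Tshz1 was 0.137, 0.170 and 0.185 (wild type) and 0.191, 0.249 and 0.193 (heterozygous), without overlap. The share of all genes without overlap was not computed within single clusters. Within cluster 8 it was 0.561, 0.524 and 0.518 (wild type) and 0.497, 0.588 and 0.573 (heterozygous), which overlapped. Equal weights thus give more room to the cluster with the smaller difference, and the part of the cluster shares in the D2 value was not tested. Casz1, also higher in cluster 8, had a log2 change of 0.31 ± 0.18 in D2 (SE, limma adjusted p = 0.691), and of 0.0829 with equal weights. With 1 library left out it ran from 0.20 (without heterozygous replicate 2) to 0.47 (without wild-type replicate 2).

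**Figure D4:**
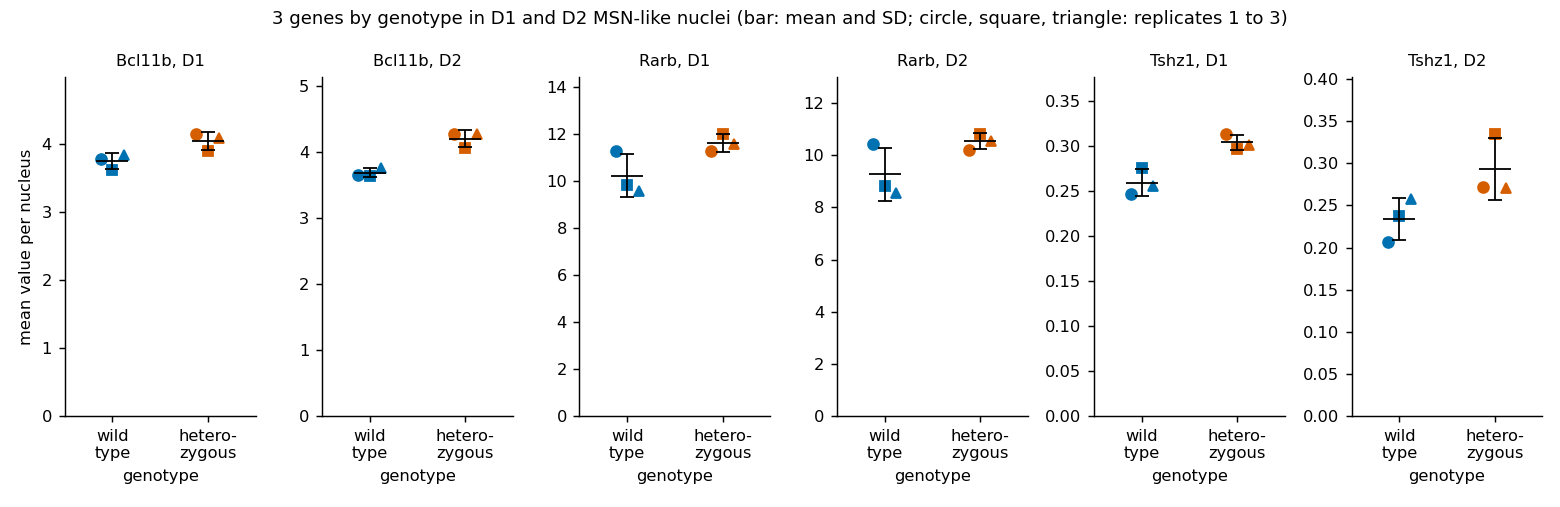
Mean value per nucleus of Bcl11b, Rarb and Tshz1 in D1 and D2 MSN-like nuclei by genotype, with 1 point per library, bars at the mean and SD of 3 libraries and axes from 0. The heterozygous libraries lie above the wild-type ones for Bcl11b and Tshz1 in both classes, and wild-type replicate 1 (circle) lies at the heterozygous level for Rarb.

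The remaining direct and indirect pathway factors overlapped between the genotypes in the MSN classes in which they were tested, except Ebf1 in the D2 class. Ebf1 in D1 MSN-like nuclei averaged 3.9 ± 0.431 (wild type) and 3.56 ± 0.480 (heterozygous; SD, n = 3 each; log2 change -0.13 ± 0.11 SE, limma adjusted p = 0.716). Without heterozygous replicate 1, the lowest library, the change was -0.02, without wild-type replicate 1 it was -0.05, and without wild-type replicate 3 or heterozygous replicate 3 it was -0.20 and -0.21. In D2 MSN-like nuclei, where its level was close to that of oligodendrocyte-like nuclei, all heterozygous libraries were lower for Ebf1 (0.0661 ± 0.0146 and 0.0516 ± 0.00123), as they were for 5.53% of the genes tested; the log2 change was -0.29 ± 0.17 (SE, limma adjusted p = 0.689), and -0.14 without wild-type replicate 2. Isl1 in D1 MSN-like nuclei averaged 0.260 ± 0.00194 and 0.257 ± 0.0142, Eya1 0.318 ± 0.0262 and 0.295 ± 0.0237, and Sp9 in D2 MSN-like nuclei 0.224 ± 0.0272 and 0.230 ± 0.0150. Meis2 averaged 10.9 ± 0.0878 and 10.9 ± 0.329 in D1 and 12.7 ± 0.197 and 13.1 ± 0.570 in D2 MSN-like nuclei. The log2 changes of Isl1, Sp9, Meis2 and Eya1 lay between -0.13 and 0.18 wherever they were tested in these classes, with a limma adjusted p of 0.751 or higher. With 1 library left out, Sp9 in D1 and Eya1 in both classes moved beyond that range, whereas Isl1, Meis2 and Sp9 in D2 stayed inside it. Sp9 in D1 ran from -0.28 (without heterozygous replicate 3) to -0.02 (without heterozygous replicate 1), and Eya1 in D2 from 0.07 (without wild-type replicate 1 or heterozygous replicate 2) to 0.30 (without wild-type replicate 2). Eya1 in D1 ran from -0.17 to -0.05, and Meis2 in D2 from 0.03 to 0.09.

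Zfp503 was the only one of the 10 genes whose groups did not overlap in all nuclei, at 0.0186, 0.0236 and 0.0208 (wild type) and 0.0255, 0.0269 and 0.0274 (heterozygous). Heterozygous libraries were all higher for 14.8% of the genes tested there. The log2 change was 0.24 ± 0.11 (SE, limma adjusted p = 0.503), and in D1 and D2 MSN-like nuclei the groups overlapped (0.0391 and 0.0482 in D1, 0.0308 and 0.0363 in D2).

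Markers of other cell types were examined in the MSN classes beside these values. Of 15 marker lists, 13 overlapped between the genotypes in D1 and in D2 MSN-like nuclei, and no list had a marker at 0. Among these 13, the 8 oligodendrocyte markers had a summed level of 2.94 and 3.14 in heterozygous replicates 1 and 2 in the D1 class, below 4.40 to 5.26 in the wild type and 5.76 in heterozygous replicate 3. For the D2 class it was 3.46 and 3.71, below 5.09 to 5.6 in the wild type and 6.51 in heterozygous replicate 3. The summed level of the 8 microglia markers was 1.06 to 1.16 in wild-type and 0.947 to 1.01 in heterozygous libraries in D1, and 0.923 to 1.00 and 0.818 to 0.863 in D2 MSN-like nuclei. That of the 10 neuroblast markers was 1.02 to 1.06 and 1.22 to 1.35 in D1, and 1.00 to 1.13 and 1.17 to 1.31 in D2 MSN-like nuclei. Their part in the values of Bcl11b, Rarb and Tshz1 was not tested.

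**Figure D5:**
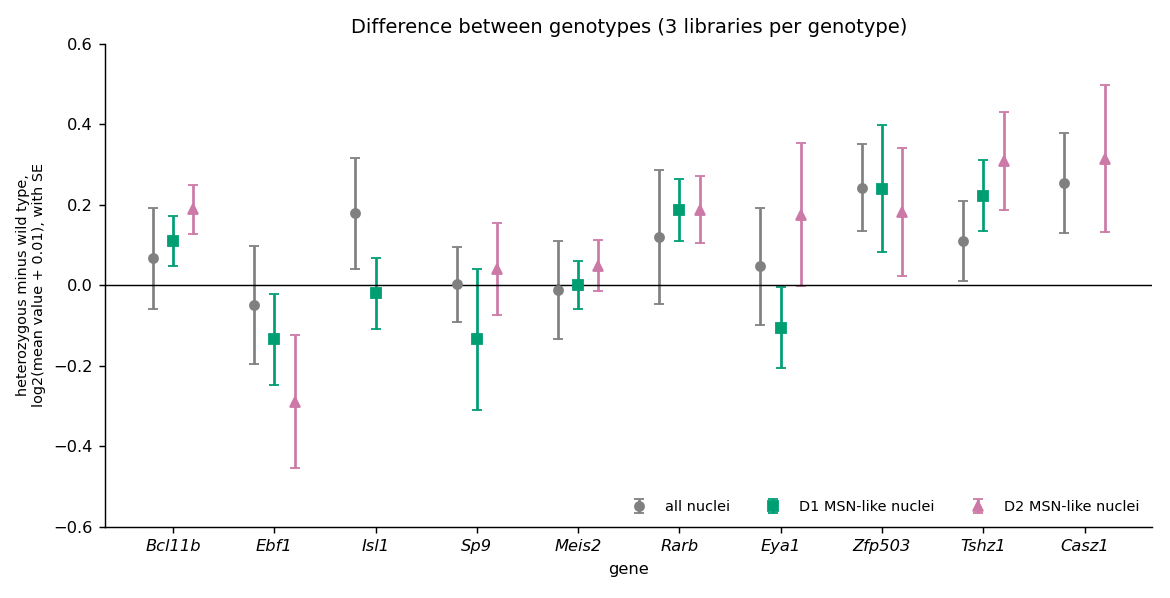
Difference between heterozygous and wild-type libraries on the log2(mean value + 0.01) scale with its SE, for each gene in all nuclei (grey), D1 MSN-like (green) and D2 MSN-like nuclei (pink), over 3 libraries per genotype. No difference passed the adjustment over all genes; the D2 changes run from -0.29 for Ebf1 to 0.31 for Casz1, and points are missing where a gene did not reach the filter.

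Whether the difference between genotypes itself differed between D1 and D2 MSN-like nuclei was tested for 8 of the 10 genes in 1 limma model. None was called, and 0 of 12684 genes were called in all (a background of 0%). At an unadjusted p under 0.05, where 4.94% of all genes lay, there was only Eya1, whose change was lower in D1 than in D2 by 0.28 ± 0.13 on the log2 scale (-0.28, limma adjusted p = 0.977). Without wild-type replicate 1 this difference was -0.12. Bcl11b gave -0.08 ± 0.04 (adjusted p = 0.977) and Rarb -0.000345 ± 0.05 (adjusted p = 0.999).

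In the other 12 classes, with 1 to 8 of the 10 genes tested in each, limma called none of them, and it called 0% of all genes in each of these classes. With 1 library left out it called up to 17 genes in a class, in microglia-like nuclei without heterozygous replicate 3 (4 without wild-type replicate 1). Without heterozygous replicate 3 there were also 6 calls among committed oligodendrocyte precursor-like nuclei, 3 among oligodendrocytes and 1 among neuroblasts. Without heterozygous replicate 1 there were 5 among glutamatergic neurons and 1 among oligodendrocytes, and without wild-type replicate 1 there was 1 each among astrocytes and oligodendrocytes, all of these being named by likeness. None of the 10 genes had an unadjusted p under 0.05 in any of them. Of all genes, the share at that level was 6.61% in GABAergic interneuron-like, 4.41% in OPC-like, 6.34% in astrocyte-like, 5.45% in cholinergic interneuron-like, 6.03% in committed oligodendrocyte precursor-like and 5.03% in eccentric MSN-like nuclei. It was 3.27% in endothelial-like, 5.35% in glutamatergic neuron-like, 5.38% in microglia-like, 5.3% in mural-like, 5% in neuroblast-like and 5.34% in oligodendrocyte-like nuclei. Isl1 in cholinergic interneuron-like nuclei did not overlap between the genotypes. It was 1.73, 1.43 and 1.45 (wild type) and 1.09, 1.21 and 1.33 (heterozygous), 1 group above the other. The cholinergic class held 29 to 43 nuclei per library, and heterozygous libraries were all lower for 4.46% of the 1412 genes tested. The log2 change was -0.34 ± 0.16 (SE, limma adjusted p = 0.895).

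No gene of the 3 lists of related factors was called by limma in all, D1 or D2 MSN-like nuclei. Of the paralogues, 7 of 16 were tested in D1 and 8 in D2 MSN-like nuclei, with medians of 0.06 and 0.07. At an unadjusted p under 0.05 there was 1 higher in heterozygous libraries in both classes, Rarg, the gamma receptor of retinoic acid, and 1 lower, Meis1, where 9.78% of all genes in D1 and 8.51% in D2 lay at that level. In the D1 class Rarg averaged 0.146 ± 0.0281 (wild type) and 0.207 ± 0.00930 (heterozygous; SD, n = 3 each; log2 change 0.50 ± 0.14 SE, limma adjusted p = 0.306). Meis1 averaged 1.50 ± 0.115 and 1.09 ± 0.193 in D2 MSN-like nuclei, without overlap, as heterozygous libraries were all lower for 5.53% of all genes there (-0.47 ± 0.12 SE, limma adjusted p = 0.281). These and the next names were chosen after their values were seen.

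Of the 24 other striatal projection neuron factors, 20 were tested in D1 and 19 in D2 MSN-like nuclei. At an unadjusted p under 0.05, 3 were higher in D1 (Foxp4, Sox11 and Pou3f1) and 2 in D2 (Foxp2 and Pou3f1), and none was lower. These counts are to be read against the same 9.78% and 8.51% of all genes. Foxp2 in the D2 class averaged 1.47 ± 0.169 (wild type) and 1.92 ± 0.153 (heterozygous; SD, n = 3 each; log2 change 0.39 ± 0.10 SE, limma adjusted p = 0.281). Its change was lower in D1 than in D2 by 0.32 ± 0.07 on the log2 scale (-0.32, adjusted p = 0.881). Of the 15 interneuron factors, 10 were tested in D1 and 8 in D2 MSN-like nuclei, and Satb1 alone had an unadjusted p under 0.05, higher in heterozygous libraries in both (0.40 and 0.47).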

How the data were processed

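Single-nucleus RNA of 6 libraries was deposited as 1 table of whole numbers. The submitters' processing notes name Cell Ranger, Seurat 4.1 and the build GRCm38, with no role or order. The values deposited by the authors were read as a score, that is, UMI numbers already adjusted for depth, because the nuclei's totals had a coefficient of variation of 10.7%. The planned count test was therefore replaced by limma, as fixed for this case.

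The 10 genes and the lists were chosen with earlier results of these data known. Clusters came from 2000 variable genes, 30 principal components, 15 neighbours and Leiden clustering at resolution 1.0 (scanpy 1.11.5, igraph 0.11.9, scikit-learn 1.9.0, Python 3.11.15), which gave 45. A cluster was named X-like when 3 or more markers of a list had a mean above 0.1 and exceeded the remaining nuclei by over 2-fold. These had to be 50% of the list, or 40% where a marker was among the cluster's top 10 genes, and MSN classes also needed 3 general MSN markers above the remaining nuclei, with limits set after the clusters were seen. When D1 and D2 MSN-like nuclei were called by their own markers, 93.6% kept their class. Scrublet called 0.317% to 0.824% of nuclei per library, so its threshold was not relied on. Nuclei with a score above 0.25 and 7 clusters in which they made up over 40% were dropped (903 nuclei, 1.85%), also with limits set after the clusters were seen.

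Mean values per library and class entered limma 3.58.1 as log2(mean + 0.01) (R 4.3.3, trended empirical Bayes), heterozygous against wild type, 3 libraries per group. Fold changes on this scale understate the change of low genes. Genes with a mean of at least 0.02 and a summed value of at least 30 per library were tested, with Benjamini-Hochberg adjustment over all genes tested. The difference between classes came from 1 model with the library as a block. The script was tested on simulated data. The rule for other named genes took the 2 most correlated genes per member, genes of the lists that were called, the 2 largest D1 to D2 differences per list and direction, and Celsr3. Gene positions are from GENCODE and promoters from RefSeq (GRCm38.p6). Of the 10 genes, 8 had a promoter entry that was used. Alternatives were other pseudocounts, no filter, size-factor scaling, the replicate number as a block, array weights, each library left out, clusters without the 10 genes, doublet-like nuclei kept, D1 or D2 called per nucleus and equal cluster weights.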

Additional observations from a re-analysis of the deposited data

How the results depend on the processing

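The number of the 10 genes called stayed at 0 in all nuclei, in D1 and D2 MSN-like nuclei, in the other classes and in the difference between D1 and D2 under every alternative run, except 1 (Rarb) in D1 with array weights. Over all genes, the 4 calls in D1 MSN-like nuclei became 2 with a pseudocount of 0.1, with no filter, with clusters without the 10 genes and with D1 or D2 called per nucleus, 21 with the replicate number as a block, 458 with array weights and 1 to 214 with 1 library left out. The 1 call in D2 MSN-like nuclei became 2 with no filter, 2 with the replicate block, 2 with doublet-like nuclei kept, 3 with D1 or D2 called per nucleus, 4 with equal cluster weights, 161 with array weights and 0 to 119 with 1 library left out. The cause was not tested. The deviations of same-numbered libraries correlated at -0.04, 0.15 and -0.07, and those of differently numbered ones at -0.15 to 0.18. With 3 libraries per genotype these values cannot decide whether same-numbered libraries share more than a number, which was not tested. The block put 1575 genes of the D1 class (1315 without it) and 1327 of the D2 class (1084) at an unadjusted limma p under 0.05. Other classes went either way, with 711 (594) in GABAergic interneuron-like and 200 (229) in OPC-like nuclei. The block changed no call among the 10 genes.

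Log2 changes near 0 turned sign. In all nuclei size-factor scaling gave -0.00245 for Bcl11b, -0.0602 for Sp9 and -0.0186 for Eya1, and array weights gave 0.171 for Ebf1 and 0.0929 for Meis2. With 1 library left out Bcl11b ran from -0.0141 to 0.169, Ebf1 from -0.163 to 0.0961, Sp9 from -0.0601 to 0.0653, Meis2 from -0.0857 to 0.087 and Eya1 from -0.0354 to 0.193. In D1 MSN-like nuclei array weights gave 0.00739 for Isl1 and 0.00584 for Eya1, and Meis2 was -0.0525 with size-factor scaling and -0.000314 with D1 or D2 called per nucleus. With 1 library left out Isl1 ran from -0.0509 to 0.0241 and Meis2 from -0.0129 to 0.0265, and in D2 MSN-like nuclei Sp9 from -0.028 to 0.132. For the difference between D1 and D2, Ebf1 was -0.00266 with a pseudocount of 0.1 and -0.038 per nucleus, Rarb 0.00231 with clusters without the 10 genes, 0.000386 with doublet-like nuclei kept and 0.0204 per nucleus, Zfp503 -0.109 with array weights and Tshz1 0.0773 with equal cluster weights. With 1 library left out these ran from -0.014 to 0.343 for Ebf1, -0.0157 to 0.00998 for Rarb, -0.105 to 0.18 for Zfp503 and -0.167 to 0.0263 for Tshz1. The unknown depth limits statements on genes with low values such as Zfp503 and Casz1.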
